A study of Mus musculus with 12 samples.

Results

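The 35 genes described here encode enzymes that make serine, folate-bound one-carbon units, deoxynucleotides, pyrimidines and purines, and they were chosen by name from these pathways. All 35 were found among the 17365 genes of the count table, and all 35 passed the filter on low counts that kept 13312 genes. RNA-seq was measured in 12 libraries of cultured adult mouse neural stem cells (NSCs) derived from the subventricular zone of wild-type animals aged 6 to 8 weeks and used below passage 10. The lines were ANS4 of strain MF1 and BL6 of strain C57BL/6, and each gave 2 libraries for each condition. In the EGF/FGF condition the cells cycled in EGF and FGF2. In the BMP condition (d-qNSCs) they received BMP4 without either growth factor, and in the BMP/FGF condition (p-qNSCs) they received BMP4 with FGF2, each factor at 10 ng/ml and each treatment for 3 days. All cultures shared a serum-free basal medium with N2, B27 and laminin. Each line is a single derivation, so that the replicates are cultures and not animals.

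The pathways feed each other. Phgdh, Psat1 and Psph turn a glycolytic intermediate into serine, and serine hydroxymethyltransferase passes a carbon of serine to tetrahydrofolate in the mitochondrion or the cytosol. The folate-bound carbon enters the purine ring and turns dUMP into dTMP, while ribonucleotide reductase supplies the deoxynucleotides that DNA replication uses. Cycling cells depend on new synthesis, while resting cells rely more on salvage and use deoxynucleotides for repair and for mitochondrial DNA.

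Levels are given in CPM (the count of a gene relative to the TMM-scaled library total), with the SD over the 4 libraries of a condition. Fold changes are log2 values with SE from edgeR's quasi-likelihood fit with line as a covariate, and a gene was called when its false discovery rate (FDR) over all 13312 genes was under 0.05. Library totals lay between 18069052 and 19451818 counts. Of all tested genes, 40.8% were higher and 38.8% lower in BMP than in EGF/FGF, and 40.9% and 38.0% in BMP/FGF. These shares stand beside the list counts of this paragraph. Replication genes gave the setting: of 19 listed, 19 were lower in BMP, with a median log2 change of −2.15, and 19 in BMP/FGF, with a median of −2.56. Mki67, a proliferation marker, stood at 656 CPM ± 137 (SD, n = 4) in EGF/FGF, at 91.4 ± 38.0 in BMP and at 46.2 ± 3.5 in BMP/FGF. Mcm2, a subunit of the replicative helicase, stood at 217, 49.0 and 30.8 CPM in the same order, and Pcna, the replication clamp, at 425, 104 and 87.1 CPM. Of the 8 stem cell and astrocyte markers, 5 were higher and 2 lower in BMP, and 6 were higher and 2 lower in BMP/FGF, with sums that lay between 5401 and 6112 CPM in EGF/FGF, between 6591 and 8136 CPM in BMP, and between 10903 and 11074 CPM in BMP/FGF. Fabp7 (−2.39 and −0.81) and Nes (−2.17 and −2.30) were the 2 that fell, while Sox2 was higher in both (0.54 and 0.50). Of the 7 neuroblast and neuron markers, 5 were tested and 5 were higher in BMP, and their summed level lay between 40.7 and 45.4 CPM in EGF/FGF, between 551 and 1074 in BMP and between 211 and 242 in BMP/FGF. Rbfox3, which defines mature neurons, did not pass the filter. Of the 6 oligodendrocyte lineage markers, 4 were tested and 4 were higher in each treated condition, with sums of 203 to 251 CPM in EGF/FGF and 679 to 767 CPM in the treated libraries, while Sox10 and Mog did not pass the filter. Of the 5 ependyma markers, 3 were tested and 2 (Foxj1 and Dnah11) were higher in each treated condition, with sums of 62.3 to 82.0 CPM in EGF/FGF and 184 to 223 CPM in the treated libraries. Of the 6 endothelial and mural markers, 4 were tested, with 2 higher and 1 lower in each treated condition, and their sum lay between 40.8 and 48.4 CPM in EGF/FGF, between 8.44 and 12.6 CPM in BMP, and between 19.4 and 24.5 CPM in BMP/FGF. The 9 microglia markers, of which 2 were tested, summed to 5.31 to 14.7 CPM over all libraries. In these bulk libraries, fewer cells that express a gene and less RNA per cell cannot be told apart, and the part of other cell types in the results was not tested.

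Most of these genes were lower in BMP than in EGF/FGF. Of the 35, 31 fell, 3 rose (Aldh1l2, Ctps2 and Phgdh) and Psph was not called, so that 97.1% were called where 79.6% of all tested genes were. By direction, 88.6% were lower and 8.57% higher, against 38.8% and 40.8% of all tested genes. The median log2 change of the 35 was −1.12, beside 0.02 for all tested genes, and 20 fell by more than 1 on the log2 scale. In BMP/FGF 31 fell and 4 rose (Aldh1l2, Psph, Phgdh and Ctps2), where 78.9% of all tested genes were called, 38.0% lower and 40.9% higher. The median was −1.14, beside 0.02, and 21 fell by more than 1. Both comparisons share the EGF/FGF libraries. BMP differs from EGF/FGF by added BMP4 and by the lack of EGF and FGF2, and BMP/FGF by added BMP4 and the lack of EGF. In these comparisons the parts of BMP4, of growth factor withdrawal and of cell cycle exit cannot be told apart.

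Between the BMP-treated conditions most of the genes were not told apart. With FGF2 added, 10 were lower (Rrm2, Tyms, Tk1, Dut, Mthfd2, Pfas, Rrm1, Cad, Gart and Impdh2), 3 were higher (Psph, Adsl and Paics) and 22 were not called. The called share, 37.1%, was near the 41.4% of all tested genes. The lower share was 28.6% and the higher share 8.57%, where 21.3% and 20.1% of all tested genes were lower and higher. The median of the 35 was −0.11, beside −0.004 for all tested genes.

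**Figure D1:**
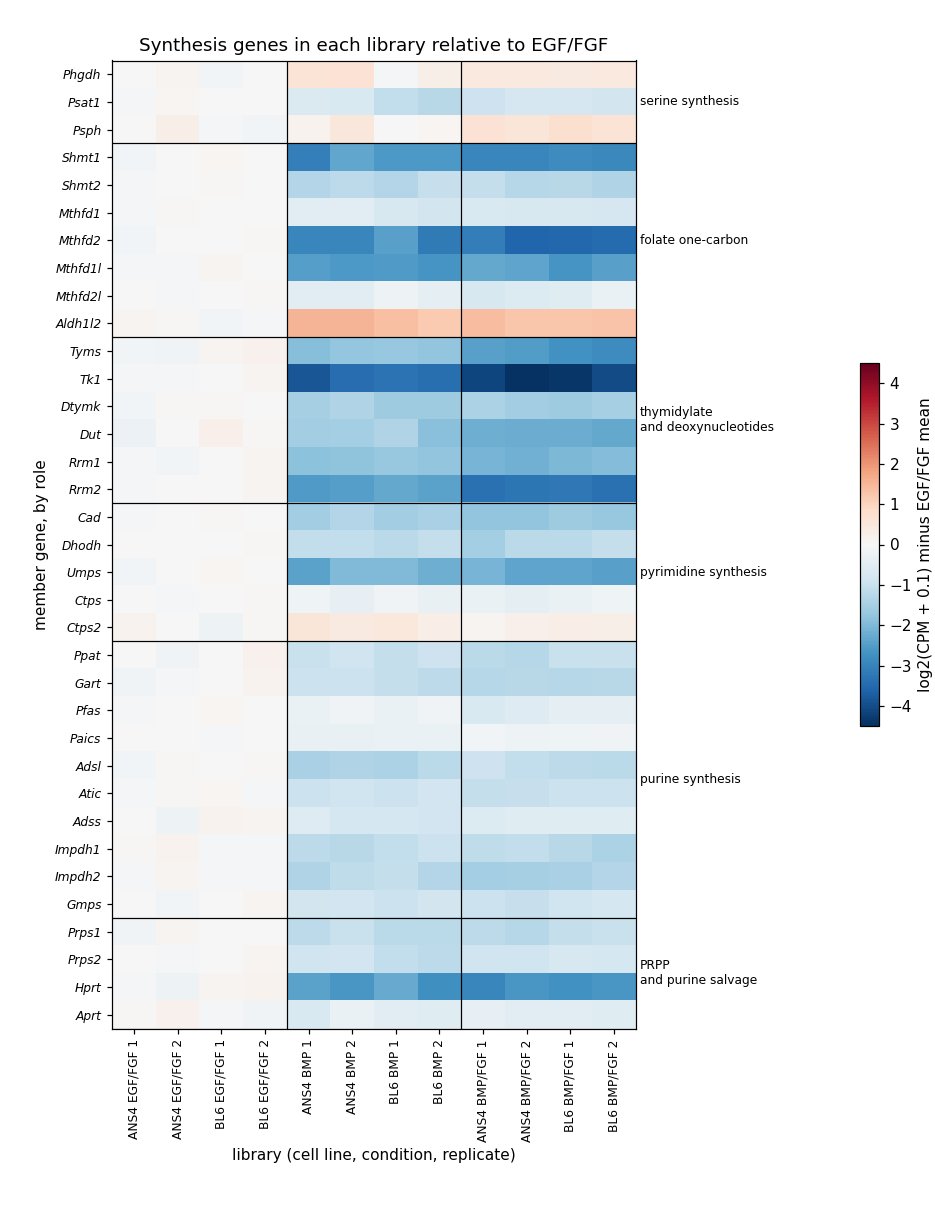
Each cell shows log2(CPM + 0.1) of 1 gene (row, by role) in 1 library (column, by condition and line) minus the mean of the 4 EGF/FGF libraries, from blue (lower) to red (higher). Tk1 and Mthfd2 are the darkest rows in BMP/FGF, and Aldh1l2, at 79.2 to 102 CPM in BMP against 32.4 to 38.0 in EGF/FGF, is the reddest.

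**Figure D2:**
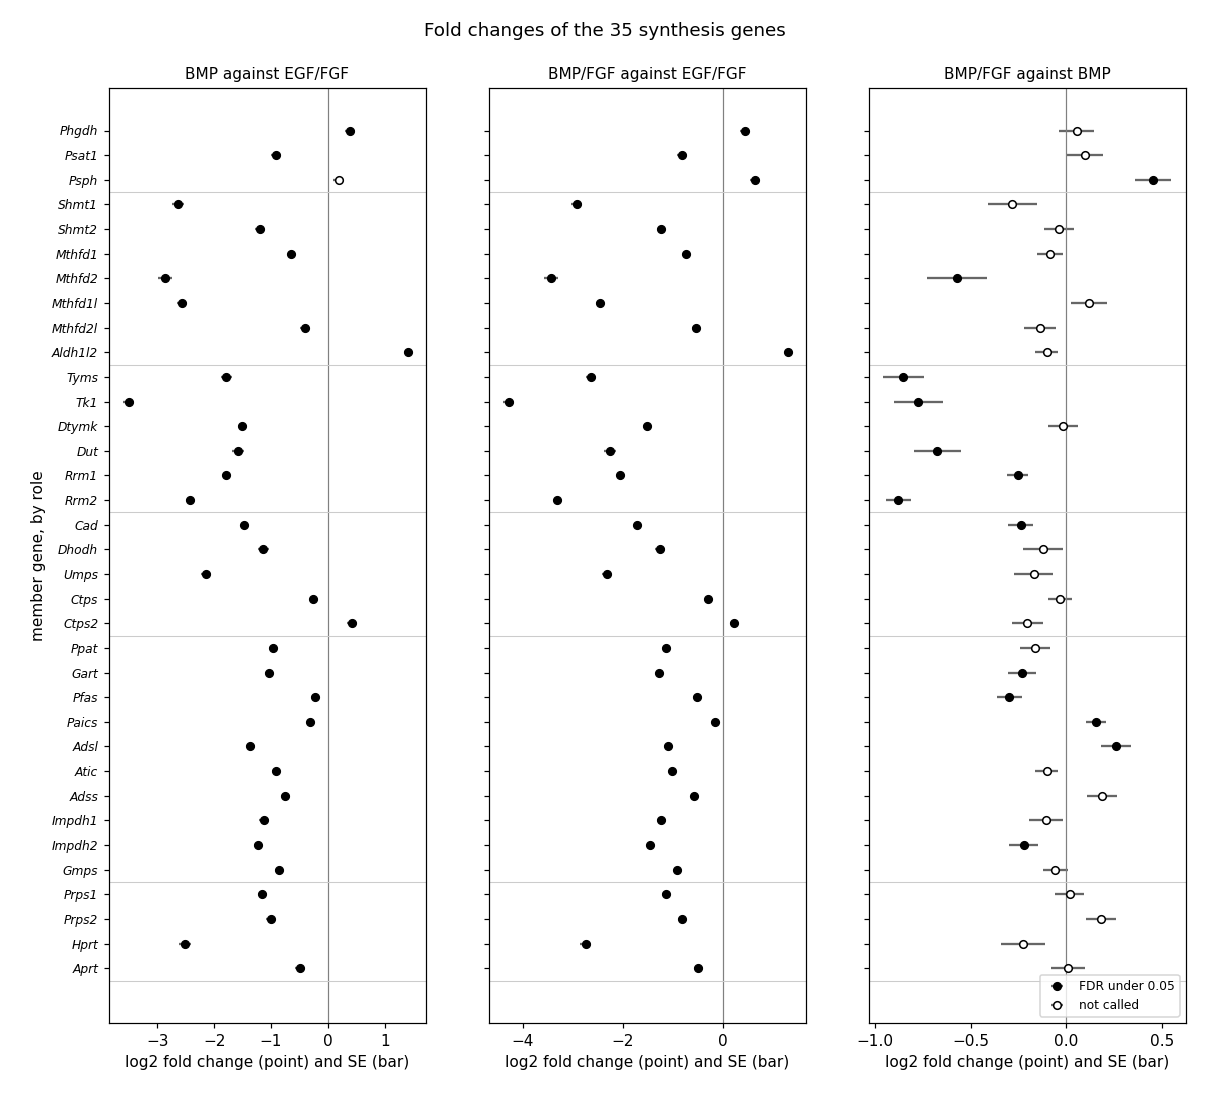
Points are log2 fold changes and bars their SE for the 35 genes in the 3 comparisons, with filled points for FDR under 0.05, and the horizontal axes differ in range. Most points lie left of 0 in the first 2 panels, and in the third the 4 lowest points are Rrm2, at −0.88, Tyms, Tk1 and Dut.

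By the median of a role group, the enzymes of thymidylate and deoxynucleotide supply fell furthest. Of other groups, Mthfd2 (−2.86), Shmt1 (−2.64), Mthfd1l (−2.57) and Hprt (−2.51) fell further in BMP than any of these enzymes but Tk1. All 6 enzymes of the group were lower in BMP, with a median log2 change of −1.79, and all 6 in BMP/FGF, with a median of −2.45. Their summed level was 1004 CPM ± 63.2 (SD, n = 4) in EGF/FGF, 251 ± 11.7 in BMP and 186 ± 5.0 in BMP/FGF. Tk1, the cytosolic thymidine kinase that is made in S phase, was at 56.2 and 55.1 CPM in the ANS4 and 59.3 and 62.9 CPM in the BL6 libraries in EGF/FGF. In BMP it was at 3.97, 5.37, 5.70 and 5.52 CPM, and in BMP/FGF at 3.23, 2.59, 2.68 and 3.52 CPM, in the same order of lines. No value of one condition overlapped another. The fit gave an 11.3-fold lower level in BMP (log2 −3.50 ± 0.0971, FDR 1.47e-15) and a 19.4-fold lower level in BMP/FGF (−4.28 ± 0.105, FDR 4.72e-16), and the step from BMP to BMP/FGF was −0.77 ± 0.128 (FDR 0.000123).

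Rrm2 encodes the cell-cycle-bound small subunit of ribonucleotide reductase. Its levels were 305, 313, 319 and 344 CPM in EGF/FGF (ANS4 first), 55.2, 57.1, 65.4 and 59.8 CPM in BMP and 30.9, 33.4, 34.1 and 30.8 CPM in BMP/FGF. The 3 conditions were fully separate. It fell by 2.43 on the log2 scale in BMP and fell by 3.31 in BMP/FGF, and its step with FGF2 was the largest of this group (−0.88 ± 0.0638, FDR 1.51e-08). Rrm1, the large subunit, stood at 462 CPM ± 33.9 (SD, n = 4), 133 ± 5.53 and 112 ± 6.22 in EGF/FGF, BMP and BMP/FGF. The FGF2 step was smaller for Rrm1 (−0.25 ± 0.0548, FDR 0.00131) than for Rrm2, and the difference between the subunits was not tested.

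Tyms, thymidylate synthase, and Dut, which removes dUTP, also separated all 3 conditions. Tyms levels lay between 52.9 and 67.5 CPM in EGF/FGF, between 15.8 and 18.0 in BMP and between 8.32 and 10.8 in BMP/FGF, and Dut levels 36.4 to 51.6, 11.7 to 17.0 and 8.71 to 9.53 CPM. With FGF2 added to BMP, Tyms fell by 0.85 (SE 0.105) and Dut by 0.67 (SE 0.122) on the log2 scale. Dtymk, which phosphorylates dTMP, fell by 1.51 and 1.52 in BMP and BMP/FGF, and its BMP/FGF-to-BMP difference was −0.02 ± 0.0792 (FDR 0.883).

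The starts of 4 genes of this group are shown as examples, from the RefSeq starts on GRCm38.p6. Dut and Dtymk fell too, and their starts are not shown. Letters are capital where one of the searched words lies, which were 4 forms of the E2F word (TTTCCCGC, TTTCGCGC, TTTGCCGC and TTTGGCGC), the E-box CACGTG, the CCAAT word and the amino acid response word TGATGNAA, each read on both strands. Each run is the 250 bases before the start, except for Tk1, where the 172 bases before the GENCODE start are given.
Tk1, chr11:117826093-117826264, minus strand: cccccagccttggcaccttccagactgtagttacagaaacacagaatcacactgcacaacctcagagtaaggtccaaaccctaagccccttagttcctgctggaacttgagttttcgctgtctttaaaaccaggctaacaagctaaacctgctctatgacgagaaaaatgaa
Rrm2, chr12:24708004-24708253, plus strand: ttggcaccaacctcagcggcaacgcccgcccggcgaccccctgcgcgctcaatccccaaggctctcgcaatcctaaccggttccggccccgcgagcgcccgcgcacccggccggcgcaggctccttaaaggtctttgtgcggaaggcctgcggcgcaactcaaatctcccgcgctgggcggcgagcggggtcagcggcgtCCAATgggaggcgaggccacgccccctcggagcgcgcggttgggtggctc
Rrm1, chr7:102441445-102441694, plus strand: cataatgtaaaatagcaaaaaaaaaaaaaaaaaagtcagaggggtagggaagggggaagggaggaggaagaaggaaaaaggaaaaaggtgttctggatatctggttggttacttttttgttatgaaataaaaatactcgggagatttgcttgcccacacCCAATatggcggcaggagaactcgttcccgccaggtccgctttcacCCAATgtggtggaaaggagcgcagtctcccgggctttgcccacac
Tyms, chr5:30073626-30073875, minus strand: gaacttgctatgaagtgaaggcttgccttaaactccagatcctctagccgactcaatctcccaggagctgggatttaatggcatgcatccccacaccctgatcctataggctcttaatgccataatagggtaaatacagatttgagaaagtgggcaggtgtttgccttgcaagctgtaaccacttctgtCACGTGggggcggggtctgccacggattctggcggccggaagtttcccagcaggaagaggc
Rrm2 holds 1 CCAAT word and Rrm1 holds 2, Tyms holds 1 E-box, and the Tk1 stretch holds none of the words. Promoter windows of 300 bases, from 250 before to 50 after the start, were found for 32 of the 35 genes (none for Aldh1l2, Dhodh and Pfas). An E2F word lay in the windows of 2 of the 32 (Ppat and Prps2), against 2.26% of all 32851 windows, and an E-box in 5 (Atic, Dtymk, Impdh2, Paics and Tyms), against 7.15%. CCAAT lay in 15, against 37.4%, and the amino acid response word in 1 (Prps1), against 3.97%. A gene was counted if any of its windows held the word, while the percentages are over single windows. These are matches of letters only.

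Each of Tk1 and Rrm2 has a relative that serves cells outside S phase, and those rose. Tk2, the mitochondrial thymidine kinase, stood at 14.6 CPM ± 0.865 (SD, n = 4) in EGF/FGF, at 29.98 ± 1.91 in BMP (log2 1.04 ± 0.0770, FDR 6.93e-10) and at 29.4 ± 1.41 in BMP/FGF (1.01 ± 0.0771, FDR 1.11e-09). Rrm2b, the p53-inducible small subunit, went from 30.7 ± 1.91 to 46.8 ± 3.61 and 53.9 ± 2.77 CPM (0.61 ± 0.0720 in BMP, FDR 4.24e-07, and 0.81 ± 0.0718 in BMP/FGF, FDR 8.72e-09). Within a library, the log2 ratio of Rrm2 to Rrm2b lay between 3.25 and 3.48 in EGF/FGF, between 0.09 and 0.56 in BMP and between −0.82 and −0.67 in BMP/FGF. The ratio of Tk1 to Tk2 was 1.83 to 2.13, −2.81 to −2.30 and −3.49 to −3.05 in the same order. The gene pairs were chosen after their values were seen, so these ratios are descriptions with no test.

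**Figure D3:**
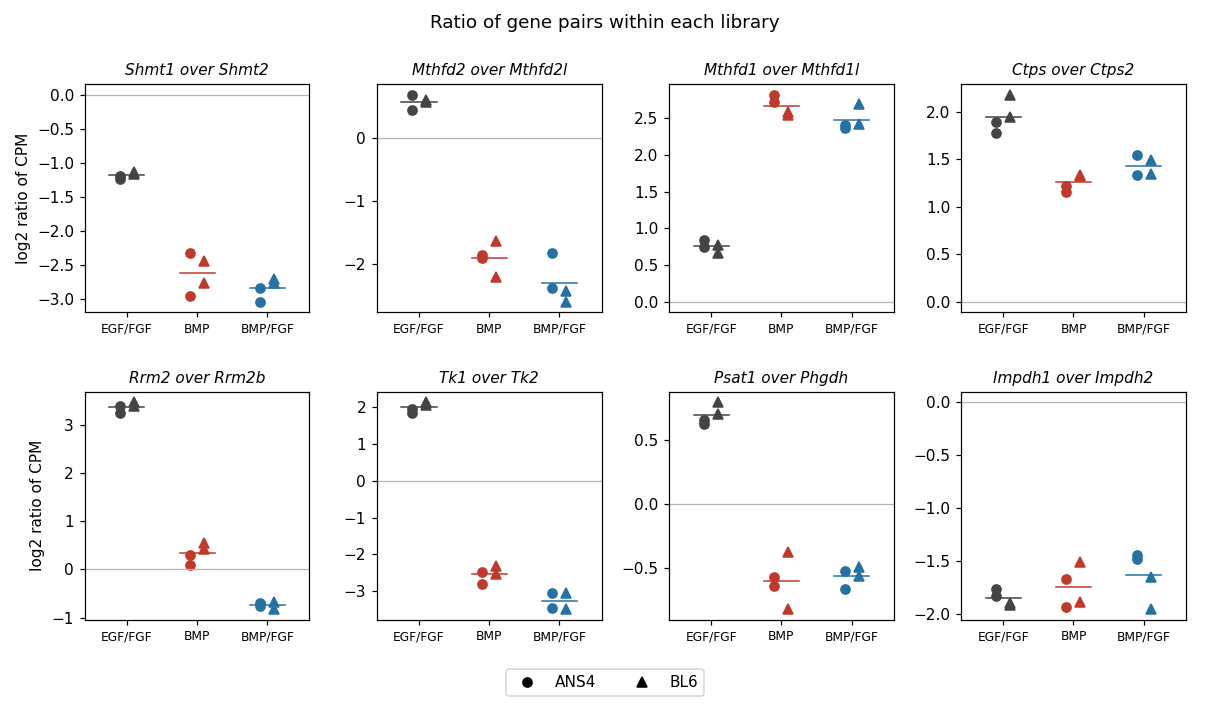
Each point is the log2 ratio of the CPM of 2 genes within 1 library (circles ANS4, triangles BL6), with a line at the mean of the 4 libraries of a condition and a vertical scale of its own in each panel. Rrm2 over Rrm2b steps down from 3.38 to 0.34 and −0.74, Mthfd1 over Mthfd1l steps up from 0.75 to 2.67 and 2.47, and Impdh1 over Impdh2 overlaps between the conditions.

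In folate one-carbon metabolism 6 of 7 genes fell in each of BMP and BMP/FGF and 1 rose, and the fall was uneven. Mthfd2, the mitochondrial dehydrogenase and cyclohydrolase, was at 35.7, 39.4, 39.4 and 40.5 CPM in EGF/FGF (ANS4 first), at 5.02, 5.03, 7.05 and 4.17 CPM in BMP and at 4.42, 3.18, 3.24 and 3.46 CPM in BMP/FGF. Both treated conditions lay far below EGF/FGF, while their own ranges overlapped. It was 7.27-fold lower in BMP (log2 −2.86 ± 0.125, FDR 5.04e-13) and 10.8-fold lower in BMP/FGF (−3.43 ± 0.133, FDR 9.87e-14), with a step of −0.57 ± 0.156 between them (FDR 0.00729).

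Mthfd2l, which catalyses the same reactions in the mitochondrion, changed much less. It stood at 24.6 to 27.0 CPM in EGF/FGF, at 18.4 to 22.1 in BMP and at 15.8 to 21.3 in BMP/FGF, with log2 changes of −0.41 ± 0.0802 and −0.55 ± 0.0809. Per kb of transcript the pair was level in EGF/FGF, at 18.6 CPM per kb for Mthfd2 and 18.4 for Mthfd2l, and apart in BMP, at 2.55 and 13.9, and in BMP/FGF, at 1.71 and 12.6. The log2 ratio of Mthfd2 to Mthfd2l in CPM fell between 0.43 and 0.68 in EGF/FGF, between −2.20 and −1.63 in BMP and between −2.59 and −1.82 in BMP/FGF.

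Serine hydroxymethyltransferase and the formate-releasing enzymes split in the same uneven way. Shmt1, the cytosolic form, went from 48.9 CPM ± 3.14 (SD, n = 4) to 7.84 ± 1.67 in BMP and 6.45 ± 0.230 in BMP/FGF, which was 6.23-fold and 7.57-fold lower. Shmt2, the mitochondrial form, went from 111 ± 4.59 to 48.1 ± 4.85 and 46.9 ± 3.91 CPM, 2.30-fold and 2.36-fold lower. For the 10-formyl-THF synthetases the order of compartments was the other way round. Mthfd1l, the mitochondrial one, was 5.94-fold and 5.48-fold lower, from 66.2 CPM ± 4.03 to 11.1 ± 0.626 and 12.1 ± 1.25, and Mthfd1, the trifunctional cytosolic one, was 1.56-fold and 1.66-fold lower, from 112 ± 4.42 to 71.6 ± 8.23 and 67.3 ± 1.45.

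Aldh1l2 was the member that rose most. This mitochondrial enzyme oxidizes 10-formyl-THF to CO2 with NADPH as a product. Its levels were 38.0, 36.4, 32.4 and 33.6 CPM in EGF/FGF, 102, 101, 88.9 and 79.2 CPM in BMP and 91.6, 84.2, 82.8 and 85.6 CPM in BMP/FGF. Every treated library lay above every EGF/FGF library, and the change was 2.64-fold in BMP (log2 1.40 ± 0.0650, FDR 1.12e-12) and 2.46-fold in BMP/FGF (1.30 ± 0.0651, FDR 3.41e-12). Aldh1l2 shares 1056 annotated exon bases with a gene on the other strand, and whether the counting used strand is not given in the sources used here. Aldh1l1, its cytosolic relative and an astrocyte marker, was at 940 CPM ± 98.4 in EGF/FGF, 972 ± 150 in BMP and 1822 ± 137 in BMP/FGF. It was not called in BMP (0.05 ± 0.0899, FDR 0.652) and rose with FGF2 (0.92 ± 0.0908 over BMP, FDR 4.98e-07).

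The 16 other genes listed for folate and glycine moved both ways, with 6 of 15 tested higher and 5 lower in BMP. In BMP/FGF 9 were higher and 4 lower than in EGF/FGF, and 4 were higher and 2 lower than in BMP. Of all tested genes, 40.8% were higher and 38.8% lower in BMP, and 40.9% and 38.0% in BMP/FGF. Between BMP/FGF and BMP the shares were 20.1% and 21.3%. The same shares stand beside the counts of the lists that follow. Largest, here and in the lists that follow, means among called genes at a mean of 1 CPM or more. Gldc, the decarboxylase of the glycine cleavage system, had the largest rise, from 117 ± 10.0 to 339 ± 9.47 in BMP (1.53 ± 0.0656, FDR 3.74e-13) and 274 ± 12.7 CPM in BMP/FGF (1.23 ± 0.0653, FDR 7.40e-12). All 4 values of Gldc in each treated condition lay above those in EGF/FGF.

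The 3 serine synthesis genes moved in both directions. Their summed level lay between 759 and 853 CPM in EGF/FGF, between 531 and 805 CPM in BMP, which overlapped that range, and between 696 and 724 CPM in BMP/FGF, which lay below it. Phgdh, which commits 3-phosphoglycerate to serine, was at 296, 316, 266 and 288 CPM in EGF/FGF, at 442, 462, 282 and 352 CPM in BMP and at 396, 399, 390 and 391 CPM in BMP/FGF. The BMP libraries of the BL6 line reached down into the EGF/FGF range, whereas the BMP/FGF libraries all lay above it. Its change was 0.38 ± 0.0896 in BMP (FDR 0.000752) and 0.44 ± 0.0895 in BMP/FGF (FDR 0.000233). For BMP, the exact permutation test over libraries, two-sided, gave p = 0.114 where 0.0286 is the smallest it can give, and the call was lost in the BL6 libraries alone.

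Psat1, the transaminase that follows, moved the other way. It was at 459, 499, 463 and 469 CPM in EGF/FGF, at 299, 297, 218 and 199 CPM in BMP and at 250, 278, 278 and 265 CPM in BMP/FGF. Both treated conditions lay below EGF/FGF (−0.91 ± 0.0927, FDR 5.50e-08, and −0.82 ± 0.0923, FDR 2.49e-07). Per kb of transcript, Psat1 was the more abundant of the pair in EGF/FGF, at 192 CPM per kb against 154 for Phgdh, and the less abundant in BMP, at 103 against 203, and in BMP/FGF, at 109 against 208. The log2 ratio of Psat1 to Phgdh in CPM was 0.63 to 0.80, −0.82 to −0.38 and −0.66 to −0.49 over the libraries of the 3 conditions.

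Psph, the phosphatase of the last step, was at 31.3, 37.9, 29.8 and 29.1 CPM in EGF/FGF, 35.4, 45.8, 31.1 and 33.9 CPM in BMP and 50.2, 46.9, 52.8 and 48.9 CPM in BMP/FGF. The BMP/FGF values lay above all others, while those of BMP and EGF/FGF overlapped. Psph rose in BMP/FGF over EGF/FGF (0.64 ± 0.0959, FDR 8.24e-06) and over BMP (0.45 ± 0.0954, FDR 0.00110), and was not called in BMP (0.19 ± 0.0969, FDR 0.0844). In the ANS4 libraries alone the difference from BMP was not called. Psph shares 452 annotated exon bases with Cct6a on the other strand. The start of Phgdh, the member of this branch that rose in both conditions, is shown for comparison with those above, and holds 2 CCAAT words.
Phgdh, chr3:98339970-98340219, minus strand: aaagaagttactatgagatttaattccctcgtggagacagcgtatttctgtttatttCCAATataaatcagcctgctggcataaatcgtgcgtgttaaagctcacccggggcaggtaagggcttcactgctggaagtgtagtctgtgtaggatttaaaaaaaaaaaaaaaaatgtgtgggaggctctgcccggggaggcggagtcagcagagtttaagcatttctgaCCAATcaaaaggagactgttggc

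Genes that use or carry serine were split evenly, with 6 of 13 higher and 6 lower in BMP, 7 and 6 in BMP/FGF, and 3 and 3 between BMP/FGF and BMP. Slc38a1, a neutral amino acid transporter, had the largest rise, from 322 CPM ± 6.39 to 1242 ± 15.2 in BMP (1.95 ± 0.0618, FDR 8.12e-15) and 1022 ± 77.1 in BMP/FGF (1.66 ± 0.0613, FDR 5.15e-14). Cth, which makes cysteine from cystathionine, had the largest fall (−1.46 ± 0.157 in BMP and −1.33 ± 0.156 in BMP/FGF). Between the treated conditions, Slc38a2, a transporter of the same family, was the lower with FGF2 by the most, at 172 CPM ± 20.8 against 344 ± 10.3 (−1.01 ± 0.0719, FDR 1.22e-08). Slc6a9, a glycine transporter, was the higher by the most, at 51.5 ± 4.66 against 32.0 ± 8.68 (0.71 ± 0.0932, FDR 1.20e-05).

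Psat1, Psph, Phgdh and Mthfd2 are known targets of Atf4, the transcription factor of the amino acid response, and the 20 genes listed for that response were tested. In BMP 6 were higher and 11 lower, in BMP/FGF 5 and 10, and between BMP/FGF and BMP 5 and 3, with medians of −0.32, −0.25 and −0.04. Slc7a1, a cationic amino acid transporter, had the largest fall among those at 1 CPM or more, from 66.4 CPM ± 2.69 to 17.5 ± 4.5 in BMP (−1.94 ± 0.105) and 12.8 ± 1.00 in BMP/FGF (−2.37 ± 0.109). Chac1, a glutathione-degrading enzyme, had the largest rise (1.70 ± 0.205 in BMP and 1.27 ± 0.213 in BMP/FGF), and Ddit3, a stress transcription factor, rose most from BMP to BMP/FGF (0.45 ± 0.116, FDR 0.00479).

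Of the 5 pyrimidine genes 4 fell and 1 rose in each treated condition. Umps, which completes UMP, fell furthest, and was at 62.2, 67.3, 71.7 and 68.9 CPM in EGF/FGF, at 12.7, 16.8, 16.8 and 14.5 CPM in BMP and at 15.6, 13.1, 12.9 and 12.5 CPM in BMP/FGF. The treated conditions overlapped each other and not EGF/FGF (−2.15 ± 0.0935, FDR 4.77e-13, and −2.32 ± 0.0949, FDR 2.06e-13). Cad, which carries the first 3 steps of the pathway on one protein, was at 138, 145, 151 and 150 CPM in EGF/FGF, 49.5, 58.4, 49.5 and 53.3 CPM in BMP and 42.9, 42.7, 48.3 and 44.6 CPM in BMP/FGF. It was the pyrimidine gene that moved most with FGF2 over BMP (−0.24 ± 0.0673, FDR 0.00867), a call lost in the BL6 libraries alone. Dhodh, the mitochondrial step, was 2.20-fold and 2.39-fold lower.

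The CTP synthetases parted. Ctps stood at 111 CPM ± 3.40 in EGF/FGF, 93.0 ± 7.24 in BMP and 90.8 ± 5.36 in BMP/FGF (−0.26 ± 0.0618 and −0.29 ± 0.0619). Ctps2 was at 32.0, 29.0, 24.6 and 30.1 CPM in EGF/FGF, at 41.7, 38.1, 39.8 and 35.5 CPM in BMP and at 31.1, 33.6, 35.4 and 34.6 CPM in BMP/FGF. BMP values lay above EGF/FGF (0.42 ± 0.0826, FDR 0.000143), and those of BMP/FGF overlapped it (0.22 ± 0.0833, FDR 0.0229). The latter call was lost in the ANS4 libraries alone and without any one of BL6 BMP/FGF replicate 1, BL6 BMP/FGF replicate 2 and BL6 EGF/FGF replicate 1.

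All 10 purine genes fell in both treated conditions, with medians of −0.94 and −1.06, and by less than the deoxynucleotide genes. Their summed level went from 1200 CPM ± 32.4 (SD, n = 4) to 727 ± 6.42 in BMP and 736 ± 17.2 in BMP/FGF. Adsl, which acts both in the ring and in AMP synthesis, fell most in BMP, from 63.6, 70.6, 69.1 and 71.6 CPM in EGF/FGF to 25.2, 26.9, 25.4 and 29.4 CPM, and was at 36.1, 31.7, 30.7 and 29.5 CPM in BMP/FGF. The BMP/FGF values lay above those of BMP (0.26 ± 0.0790, FDR 0.0139), a call lost in the BL6 libraries alone and without ANS4 BMP/FGF replicate 1. Impdh2, which commits IMP to GMP, fell most in BMP/FGF, from 143, 162, 144 and 143 CPM in EGF/FGF through 57.2, 66.0, 69.9 and 59.5 CPM in BMP to 50.7, 52.6, 53.5 and 59.7 CPM (−1.45 ± 0.0750 against EGF/FGF, FDR 5.25e-12). Its paralogue Impdh1 fell alike, by 1.12 and 1.23 on the log2 scale against 1.23 and 1.45 for Impdh2.

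Against EGF/FGF, Paics and Pfas had the smallest changes of the 10 purine genes in BMP. Paics, which carries the sixth and the seventh step of the ring, was at 338, 349, 331 and 348 CPM in EGF/FGF, 268, 273, 281 and 274 CPM in BMP and 314, 295, 300 and 309 CPM in BMP/FGF. The conditions did not overlap, and the changes were −0.32 ± 0.0524 in BMP, −0.16 ± 0.0523 in BMP/FGF and 0.15 ± 0.0524 between them (FDR 0.0269). The last call was lost under 8 of 22 alternatives, with library size only and the replicate block among them. Per kb of transcript, Paics was the fourth most abundant of the 35 in EGF/FGF, at 146 CPM per kb, and the second in BMP, at 117, after Phgdh. Pfas, an earlier step of the ring, was at 60.8, 64.3, 68.8 and 65.6 CPM in EGF/FGF, 52.4, 58.6, 52.7 and 57.4 CPM in BMP and 40.4, 43.0, 47.8 and 49.1 CPM in BMP/FGF, and fell by 0.30 (SE 0.0667, FDR 0.00174) with FGF2, the largest change of the 10 purine genes between BMP/FGF and BMP. This call was lost in the BL6 libraries alone.

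Ppat, the amidotransferase that commits PRPP to the purine ring, begins 276 bases from Paics on chr5, on the other strand, with annotated exons that overlap by 272 bases. Ppat fell by 0.97 (SE 0.0752) in BMP and by 1.13 (SE 0.0759) in BMP/FGF, from 74.2 CPM ± 7.25 to 37.8 ± 2.04 and 33.9 ± 3.47, so that the log2 ratio of Paics to Ppat lay between 2.05 and 2.39 in EGF/FGF, between 2.76 and 2.99 in BMP and between 3.03 and 3.30 in BMP/FGF. Reads of the shared stretch cannot be told apart without strand. Gart fell by 1.04 and 1.27, Atic by 0.92 and 1.02, Gmps by 0.86 and 0.92 and Adss by 0.75 and 0.57 on the log2 scale in BMP and BMP/FGF. Gart carries 3 of the ring steps, Atic the last ones, and Gmps and Adss make GMP and the precursor of AMP.

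The salvage enzyme Hprt, which returns hypoxanthine and guanine to nucleotides, fell furthest of the PRPP and salvage group. It was at 54.8, 49.2, 63.2 and 64.6 CPM in EGF/FGF, at 10.7, 9.29, 11.9 and 8.49 CPM in BMP and at 7.38, 9.21, 8.71 and 9.27 CPM in BMP/FGF. The treated libraries overlapped each other and lay below all EGF/FGF libraries (5.71-fold lower, log2 −2.51 ± 0.103, FDR 2.06e-13, and 6.68-fold lower, −2.74 ± 0.105, FDR 8.54e-14). Aprt, which salvages adenine, fell by 0.50 and 0.49. Prps1 and Prps2, which make the PRPP that both synthesis and salvage consume, fell by 1.15 and 1.01 in BMP and by 1.14 and 0.83 in BMP/FGF. None of these 4 was called between BMP/FGF and BMP.

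Other genes of nucleoside salvage and breakdown moved both ways, with 8 of 26 tested higher and 12 lower in BMP, and 9 and 11 in BMP/FGF. Between BMP/FGF and BMP 14 were higher and 5 lower, where 20.1% and 21.3% of all tested genes were. Upp1, uridine phosphorylase, had the largest fall in BMP, from 24.6 CPM ± 1.26 to 2.85 ± 0.280 (−3.11 ± 0.104, FDR 1.44e-14), and was at 6.26 ± 0.441 in BMP/FGF. Gmpr, which turns GMP back to IMP, had the largest rise in BMP, from 7.0 ± 0.933 to 39.9 ± 8.34 CPM (2.49 ± 0.111), and the largest fall from BMP to BMP/FGF (−0.55 ± 0.0973, FDR 0.000230). Ampd3, an AMP deaminase, rose most in BMP/FGF, from 9.27 ± 0.5 to 53.7 ± 1.48 CPM (2.53 ± 0.0677), and Ada, adenosine deaminase, fell most there (−2.11 ± 0.145). Nt5e, the ecto-nucleotidase CD73, was the gene of this list that rose most with FGF2 over BMP, from 1.29 ± 0.263 to 3.72 ± 0.705 CPM (1.52 ± 0.199, FDR 1.20e-05), and stayed below the 6.95 ± 0.948 CPM of EGF/FGF.

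Among the 16 tested genes of deoxynucleotide supply and removal outside the 35, 5 were higher and 9 lower in BMP, 5 and 8 in BMP/FGF, and 6 and 2 between BMP/FGF and BMP. Dctpp1, which removes surplus dCTP, fell most (−2.19 ± 0.124 and −2.43 ± 0.128), and Cmpk2, the mitochondrial UMP-CMP kinase, rose most (1.29 ± 0.0768 and 1.69 ± 0.0764). With FGF2 over BMP, Dck, deoxycytidine kinase, fell most (−0.37 ± 0.0641) and Nme2, a nucleoside diphosphate kinase, rose most (0.44 ± 0.0716). In the methionine cycle 2 of 9 tested were higher and 6 lower in BMP, 2 and 5 in BMP/FGF, and 2 and 2 between the treated conditions. Ahcy, which clears S-adenosylhomocysteine, fell most, from 39.8 CPM ± 4.48 to 9.91 ± 1.06 and 9.65 ± 0.908 (−2.003 ± 0.10 and −2.04 ± 0.101), while its relative Ahcyl2 rose most (0.45 ± 0.0841 and 0.62 ± 0.0840). Between the treated conditions, Ahcyl1 rose most (0.41 ± 0.0648) and Amd1, which decarboxylates S-adenosylmethionine, fell most (−0.41 ± 0.0604).

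The interaction test found 9 line differences among the 35 genes over the 3 comparisons. The comparisons share libraries, so the 9 are not separate results. Most of the genes were not called, which does not show that they changed alike. For BMP against EGF/FGF 5 genes differed, 14.3% of the 35 where 9.02% of all tested genes differed, and in all 5 the BL6 change was the lower. Over all tested genes, the BL6 change was the lower in 483 of the 1201 that differed. Psat1 fell by 1.16 in BL6 and 0.68 in ANS4 (difference −0.48 ± 0.0955, FDR 0.00513), Adss by 0.95 and 0.55 (−0.40 ± 0.110, FDR 0.0297), Prps2 by 1.19 and 0.83 (−0.36 ± 0.0986, FDR 0.0308), Gart by 1.22 and 0.87 (−0.35 ± 0.101, FDR 0.0382) and Mthfd1 by 0.81 and 0.49 (−0.32 ± 0.0940, FDR 0.0424). In BMP/FGF against EGF/FGF only Tyms differed, 2.86% of the 35 against 4.98% of all tested genes, with a fall of 2.93 in BL6 and 2.36 in ANS4 (−0.57 ± 0.138, FDR 0.0245).

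Between BMP/FGF and BMP, 3 genes changed unequally in the lines, 8.57% where 13.5% of all tested genes differed. In all 3 the BL6 change was the higher, as it was in 888 of the 1801 differing genes over all tested. Psat1 was higher with FGF2 in BL6 (log2 0.38) and lower in ANS4 (−0.17), a difference of 0.56 ± 0.0963 (FDR 0.00125). Phgdh was at 0.30 in BL6 and −0.19 in ANS4 (0.49 ± 0.114, FDR 0.00948), and Prps2 at 0.38 and −0.02 (0.40 ± 0.101, FDR 0.0146). In each of the 3 genes the BL6 BMP libraries were the lowest of the 8 treated ones. Prps2 stood at 56.2 and 53.0 CPM there, against 63.8 to 73.3 CPM in the other 6 treated libraries. The neuroblast marker sum was 1013 and 1074 CPM in these libraries and 551 and 564 CPM in the ANS4 BMP libraries, and Mki67 was at 130 and 118 CPM against 63.2 and 54.6 CPM. The part of either in the line differences was not tested. The BL6 BMP pair also differed from each other more than other replicate pairs (chi-square per degree of freedom 12.3, against 2.13 to 4.71). Leaving out 1 library leaves only 1 of that line and condition. Without BL6 BMP replicate 1, the count of line differences rose for BMP against EGF/FGF and for BMP/FGF against BMP. Without ANS4 BMP replicate 1, or without BL6 EGF/FGF replicate 2, the count for BMP against EGF/FGF fell. Each of these shifts was seen among the 35 genes and over all tested genes. The differences of Mthfd1 and Gart were lost under 15 of 19 alternatives each.

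**Figure D4:**
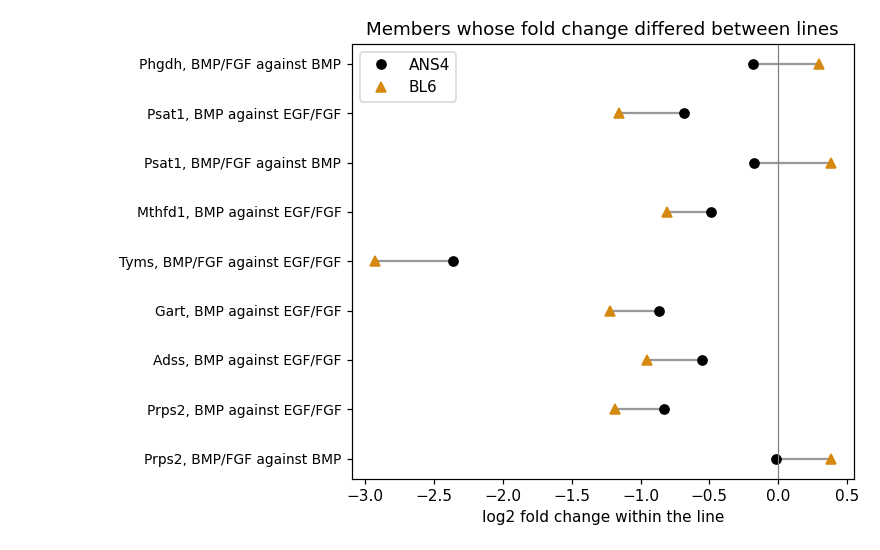
For each of the 9 gene and comparison pairs whose change differed between lines, the horizontal axis gives the log2 fold change within ANS4 (circle) and within BL6 (triangle). BL6 lies left of ANS4 in the 6 pairs against EGF/FGF and right of it in the 3 pairs of BMP/FGF against BMP.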

How the data were processed

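Reads were trimmed by the authors with Trim Galore 0.5.0 and assigned to mm10 transcripts by kallisto 0.44.0, and tximport summed these to genes. The deposited values are estimated counts, rounded to whole numbers. A second deposited table holds log2 values from the regularized logarithm of DESeq2. Whether the counting used strand is not given in the sources used here. Besides the overlaps given above, Gart shares 676 annotated exon bases with a gene on the other strand, Umps 213, Shmt1 184 and Tk1 83. Impdh2 shares 48, Mthfd1 37 and Shmt2 32. The 35 members, the role groups and the related lists were chosen with earlier results of these data known, so they support nothing by themselves, and no test was made over a list. Genes were filtered with filterByExpr (13312 of 17365 kept), scaled by TMM and fitted with edgeR 4.0.16 (R 4.3.3, glmQLFit and glmQLFTest, two-sided, Benjamini-Hochberg over all tested genes) on 12 libraries with condition and line as terms, and line differences came from their interaction. CPM values use the same scaling. The permutation test used log2(CPM + 0.1) over 70 divisions of 4 against 4 libraries. All 35 genes are named. Library values are given by rule for the member with the largest called change in each role group and comparison, and for members called against the direction of most of their group. Phgdh, the gene pairs and their ratios were added after values were seen. Related lists are given by their counts and by the largest called rise and fall at a mean of 1 CPM or more. A result of this rule is not reported here. Transcript lengths and gene positions came from GENCODE vM21 (GRCm38), and the length was the median over coding transcripts. One count equals 0.0516 to 0.0559 CPM. P-values measure the spread between cultures of 2 lines. The scripts were tested on simulated data. Alternatives were DESeq2 1.42.0, its size factors in edgeR, library size only, limma 3.58.1 on the deposited log2 values, no filter, no line term, the replicate number as a block, fewer libraries and each line alone.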

Additional observations from a re-analysis of the deposited data

Results flagged for a closer look

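In groups of 4 libraries, 1 of 105 combinations of gene and condition held a library far from the other 3, where chance gives about 1 in 20 such groups. This was Impdh2 in EGF/FGF, at 161.8 CPM in ANS4 replicate 2 and at 142.8 to 143.6 CPM in the others.

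In comparisons that share libraries, the interaction test found 9 changes that differed between lines, given as the BL6 minus the ANS4 log2 fold change. For BMP against EGF/FGF they were −0.48 for Psat1, −0.32 for Mthfd1, −0.35 for Gart, −0.40 for Adss and −0.36 for Prps2. For BMP/FGF against EGF/FGF the value was −0.57 for Tyms. For BMP/FGF against BMP they were 0.49 for Phgdh, 0.56 for Psat1 and 0.40 for Prps2.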

How the results depend on the processing

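The direction of every called change of the 35 genes held under all alternatives run. Against EGF/FGF, 33 of 34 calls for BMP (all but Phgdh) and 34 of 35 for BMP/FGF (all but Ctps2) held everywhere. Between BMP/FGF and BMP, 5 of 13 did: Tyms, Tk1, Dut, Rrm1 and Rrm2. Psph and Mthfd2 lost theirs in ANS4 alone, and Cad, Pfas, Gart, Adsl, Impdh2 and Paics in BL6 alone. Paics also lost it under library size only, under the replicate block and without either ANS4 BMP library, either BL6 BMP/FGF library or ANS4 BMP/FGF replicate 1. Gart lost it without either ANS4 BMP library, Adsl without ANS4 BMP/FGF replicate 1, and Impdh2 without ANS4 BMP replicate 2, BL6 BMP replicate 1, BL6 BMP/FGF replicate 1 or either ANS4 BMP/FGF library. With DESeq2, 3 were higher and 11 lower. In ANS4 alone 2 were higher and 15 lower, and in BL6 alone 5 were higher and 8 lower. Over all tested genes, 4783 of 13369 were called in ANS4 alone and 5440 of 13441 in BL6 alone. Leaving out 1 library in turn gave 1 to 4 higher and 8 to 13 lower, with 1 higher without ANS4 BMP/FGF replicate 1.

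The median of the 35 for BMP against EGF/FGF was −1.02 on the deposited log2 values and −1.18 in BL6 alone. Between BMP/FGF and BMP it was −0.19 in ANS4 alone and −0.060 in BL6 alone. Without single libraries it ranged from −1.15 to −1.08, from −1.19 to −1.10 and from −0.14 to −0.10 in the 3 comparisons.

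Line differences held least. For BMP against EGF/FGF, 5 became 3 under library size only, the deposited log2 values and the replicate block, 1 with no filter and 1 with only the 8 libraries compared. Without single libraries the count was 1 to 8 (8 without BL6 BMP replicate 1, and 1 without ANS4 BMP replicate 1 or BL6 EGF/FGF replicate 2), and Psat1 alone kept its call everywhere. For BMP/FGF against EGF/FGF, Tyms lost its call on the deposited log2 values (count 0) and without any one of the 8 libraries compared (0 to 1). For BMP/FGF against BMP the count was 2 to 7 without single libraries. Library size only also shifted the share of line differences over all genes in which BL6 was higher, from 59.8% to 71.0%, from 63.3% to 46.1% and from 49.3% to 28.0% in the 3 comparisons. The causes were not tested.

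The replicate number was treated as not pairing the libraries. Same-numbered libraries of a line had deviations correlated between −0.07 and 0.05, which cannot show whether they were handled together. With the replicate block, BMP/FGF against BMP gave 2 higher and 10 lower, and of the 35 genes only Paics there and the line differences of Mthfd1, Gart and Prps2 in BMP lost a call.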
